A study of Mus musculus with 24 samples.

Results

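Ptpn5 encodes STEP, a tyrosine phosphatase best known from the brain, and it lies on mouse chromosome 7 beside genes with unrelated housekeeping roles. The set described here is Ptpn5 and 7 genes on the same stretch of the chromosome (Gtf2h1, Tsg101, Uevld, Spty2d1, Tmem86a, Zdhhc13 and E2f8), taken by symbol as 8 of the 55487 genes that the value files list. Ptpn5 was chosen by its measured level in these libraries, which was far higher in lymphoid progenitors (LPs) that carried sgRNAs against Ctcf than in control LPs. That contrast of Ptpn5 is therefore given as a description without a test, and the question asked of the other 7 genes was whether they rose with it. The 7 are not every gene of the stretch: Ldha, for example, lies among them, and Hps5 lies just outside, next to Gtf2h1. Other tested genes nearest to Ptpn5 are therefore described as well.

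All libraries came from Cas9-LP, a line of lymphoid progenitors grown from fetal liver of Ebf1-deficient mice with a Rosa26-Cas9 knock-in, so Ebf1 deficiency and Cas9 were shared by every group, controls included. Cells were kept with SCF, Flt3L and IL-7 on mitomycin C-treated OP9 stroma, or on OP9-DLL4 for the Notch-stimulated Phase 1 cells, received pooled retroviral sgRNA-hNGFR vectors, and were sorted as hNGFR+CD45+ cells 5 days after transduction. hNGFR marks cells that took up a vector and does not show whether they were edited. From immunoblots of hNGFR+ cells at an earlier day, the paper reports loss of the Cbfb protein. The same set of blots covered CTCF and Med12, and the paper presents it as a check of depletion. Experiment 1 held LP and Phase 1 cells with sgControl (sgRNAs against luciferase) or sgCbfb. Experiment 2 held only LPs, with sgControl or with sgRNAs against Cbfb, Ctcf (sgCTCF) or Med12, and each of the 8 groups had 3 libraries.

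CTCF binds DNA through zinc fingers and, with cohesin, anchors chromatin loops and marks boundaries between neighbouring chromatin domains, so a gene and its neighbours can respond differently when CTCF is lost. Cbfb encodes the partner that RUNX factors need for stable binding to DNA. Med12 is part of the kinase module of Mediator, the complex that links transcription factors to RNA polymerase II.

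Levels come from 3' end sequencing and are given as CPM, the reads of a gene scaled to a library total common to all samples. Experiment 2 was the deeper one, with 3354483 to 4326782 reads on genes per library against 1363263 to 1743319 in experiment 1, so that 3 reads corresponded to 0.693 to 0.894 CPM and to 1.72 to 2.20 CPM, respectively. A group with no library above 3 reads was treated as at the floor. Among the targeted genes of experiment 2, Cbfb fell with sgCbfb from 114.3 ± 8.37 to 48.4 ± 6.93 CPM (SD, n = 3 each) and Ctcf fell with sgCTCF from 391.0 ± 30.7 to 305.7 ± 29.96 CPM (log2 fold change -0.36, SE 0.10, limma adjusted p = 0.021). Med12 stood at 5.14 ± 1.26 CPM with sgControl and 7.01 ± 3.38 CPM with sgMed12 (limma adjusted p = 0.66), so its mRNA gave no check of that label. In experiment 1, Cbfb fell in LPs from 86.5 ± 9.30 to 40.2 ± 5.18 CPM, whereas Phase 1 cells had 66.5 ± 19.2 CPM in the sgControl and 53.9 ± 9.69 CPM in the sgCbfb group (limma adjusted p = 0.59). All 6 lymphoid progenitor markers examined (Il7r, Flt3, Rag1, Dntt, Spi1 and Ptprc) were detected in every group.

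The members span 2085 kb of chromosome 7 on GRCm38, in 2 clusters. Ptpn5 (47077795 to 47133684, minus strand) has Tmem86a (47050601 to 47054777, plus strand) as the nearest member. The 3' ends of the pair face each other across 23.0 kb. Further along the same side lie Spty2d1 (46990396 to 47008411, minus strand, 69.4 kb from Ptpn5), Uevld (46923216 to 46958527, minus strand, 119.3 kb), Tsg101 (46888949 to 46919969, minus strand, 157.8 kb) and Gtf2h1 (46796103 to 46823800, plus strand, 254.0 kb). On the other side of Ptpn5, beyond a cluster of Mrgpr receptor genes, lie Zdhhc13 (48789003 to 48827440, plus strand) and E2f8 (48866429 to 48881596, minus strand), 1655 and 1733 kb away. All 8 are protein-coding genes and all 8 passed the filter on low values in both experiments, although Ptpn5 had no more than 3 reads in any library of experiment 1.

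Promoter sequences are shown for the 3 genes with higher levels under sgCTCF, since CTCF and RUNX factors are DNA-binding proteins with known motifs. They are RefSeq sequences on GRCm38.p6 of up to 250 bases before a start site, each written 5' to 3' on its gene's strand. Capitals mark matches to the RUNX letters TGTGGT. The Ptpn5 promoter is the one at the outer start site (chr7:47133685-47133934, minus strand), Spty2d1 is at chr7:47008415-47008664 (minus strand) and Tmem86a at chr7:47050390-47050630 (plus strand). The end of the Tmem86a sequence, its match included, lies past the start of the gene as GENCODE draws it.
Ptpn5: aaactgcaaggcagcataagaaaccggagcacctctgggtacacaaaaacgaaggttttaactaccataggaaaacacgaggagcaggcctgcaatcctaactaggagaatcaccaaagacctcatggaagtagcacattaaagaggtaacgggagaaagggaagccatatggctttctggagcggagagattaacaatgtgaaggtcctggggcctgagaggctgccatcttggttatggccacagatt
Spty2d1: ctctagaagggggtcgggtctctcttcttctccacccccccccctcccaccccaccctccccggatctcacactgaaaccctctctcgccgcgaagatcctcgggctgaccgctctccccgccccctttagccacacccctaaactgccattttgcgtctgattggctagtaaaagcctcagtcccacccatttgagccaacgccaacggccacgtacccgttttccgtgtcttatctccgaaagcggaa
Tmem86a: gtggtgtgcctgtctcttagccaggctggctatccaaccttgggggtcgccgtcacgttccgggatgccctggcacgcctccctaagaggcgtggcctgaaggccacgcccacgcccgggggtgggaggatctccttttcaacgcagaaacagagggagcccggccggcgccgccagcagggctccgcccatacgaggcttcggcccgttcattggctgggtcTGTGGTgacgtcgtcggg
A further RUNX match lay in the window before the inner start site of Ptpn5, at chr7:47132661-47132688 on the minus strand, which falls inside the gene as GENCODE draws it.
Ptpn5, inner site: tgttaagggtcTGTGGTccgcccctcta
RefSeq promoters were found for 7 of the 8 members (8 windows, Ptpn5 having 2), and Zdhhc13 had no entry. A CTCF core consensus, searched on both strands, occurred in 0 of the 8 windows and in 2.067% of 32851 promoters of the same length. On either strand, TGTGGT occurred in 2 of the 8 windows, those shown for Tmem86a and the inner start of Ptpn5, and in 14.045% of all promoters. These matches are descriptions of letters in a short window and say nothing of binding there or elsewhere.

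Ptpn5 rose from a level close to the limit of detection to that of a well-expressed gene when Ctcf was targeted. In the sgControl LPs of experiment 2 it was at 3.69, 2.07 and 2.44 CPM in replicates 1 to 3, from 7 to 14 reads. With sgCTCF it was at 218.7, 239.2 and 188.4 CPM, from 815 to 859 reads. All sgCTCF libraries were far above every other library, and the ratio of the group means (215.4 ± 25.6 against 2.73 ± 0.85 CPM, SD, n = 3) was 78.9. On the log2(CPM + 1) scale used for the fits below the difference was 5.88, the largest rise among the 13177 genes tested. Because this contrast chose the gene, no p-value is given for it.

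With sgMed12, Ptpn5 was at 9.32, 4.94 and 1.42 CPM. These libraries ranged from below to above those of the sgControl group (log2 fold change 0.53, 95% interval -0.23 to 1.29, limma adjusted p = 0.41). The ratio of the means, 1.91, was 1.16 without sgMed12 replicate 1. With sgCbfb it was at 0, 0.536 and 0.251 CPM, 2 reads or fewer in each library, below every sgControl library and at the floor. The order of the group levels in experiment 2 was therefore sgCTCF, sgMed12, sgControl and sgCbfb, with the sgMed12 and sgControl groups overlapping.

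The low level with sgCbfb passed the test. Ptpn5 fell by 1.56 on the log2(CPM + 1) scale (SE 0.37, limma adjusted p = 0.0042), and against the floor of 3 reads per library it was at least 3.34-fold lower than with sgControl. That call was lost with a pseudocount of 5 (log2 fold change -0.55, adjusted p = 0.12). Between sgMed12 and sgCbfb, Ptpn5 was higher with sgMed12 by 2.09 (SE 0.37, adjusted p = 1.8e-04), at least 6.39-fold against the floor. Without sgMed12 replicate 1, the library with 9.32 CPM, that bound was 3.89-fold. The sgCTCF level was 41.2 times that with sgMed12, or 67.8 times without the same library, and at least 263-fold higher than the floor of the sgCbfb group, again as descriptions.

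Experiment 1 was too shallow to compare Ptpn5. The sgControl LPs held 3, 1 and 2 reads of it (1.77, 0.619 and 1.28 CPM) and the sgCbfb LPs held 0 in each library. In Phase 1 cells it had 0, 2 and 0 reads with sgControl and 0, 1 and 0 with sgCbfb. All 4 groups were at the floor, so no fold change is given, and Ptpn5 is left out of the counts for experiment 1 below. A share of reads below that of 3 reads would not have been seen at this depth.

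Markers of other cells were read beside Ptpn5, since OP9 cells are the stroma of these cultures and the gene is known from neurons. Of 6 stromal genes, Dcn and Col3a1 had no read in either the sgCTCF or the sgControl group, and the summed level of all 6 was 11.6 to 21.2 CPM with sgCTCF and 0, 0 and 16.6 CPM in the sgControl libraries. The sgControl library with 16.6 CPM had Ptpn5 at 3.69 CPM, and the sgMed12 library with the highest stromal sum, 25.4 CPM, had it at 9.32 CPM. The sgCbfb library with a stromal sum of 13.4 CPM had Ptpn5 at 0 CPM. Of 6 neural genes, Map2, Rbfox3 and Snap25 had no read in any group of experiment 2, and the summed level was 49.9 to 67.4 CPM with sgCTCF against 42.6 to 55.1 CPM with sgControl, with the groups overlapping. Of 3 B lineage genes (Ebf1, Pax5 and Cd79a), Cd79a had no read in either group, and the summed level was lower with sgCTCF, at 196.7 to 227.9 CPM against 242.8 to 314.6 CPM, without overlap. In both groups, 2 of the 3 had over 3 reads in a library. The list includes Ebf1, in which the line is deficient. Here and below, the sum of this list is not read as a number of B lineage cells. The part of these lists in the level of Ptpn5 was not tested. In bulk samples, fewer cells with a transcript and less of it per cell cannot be told apart.

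**Figure D1:**
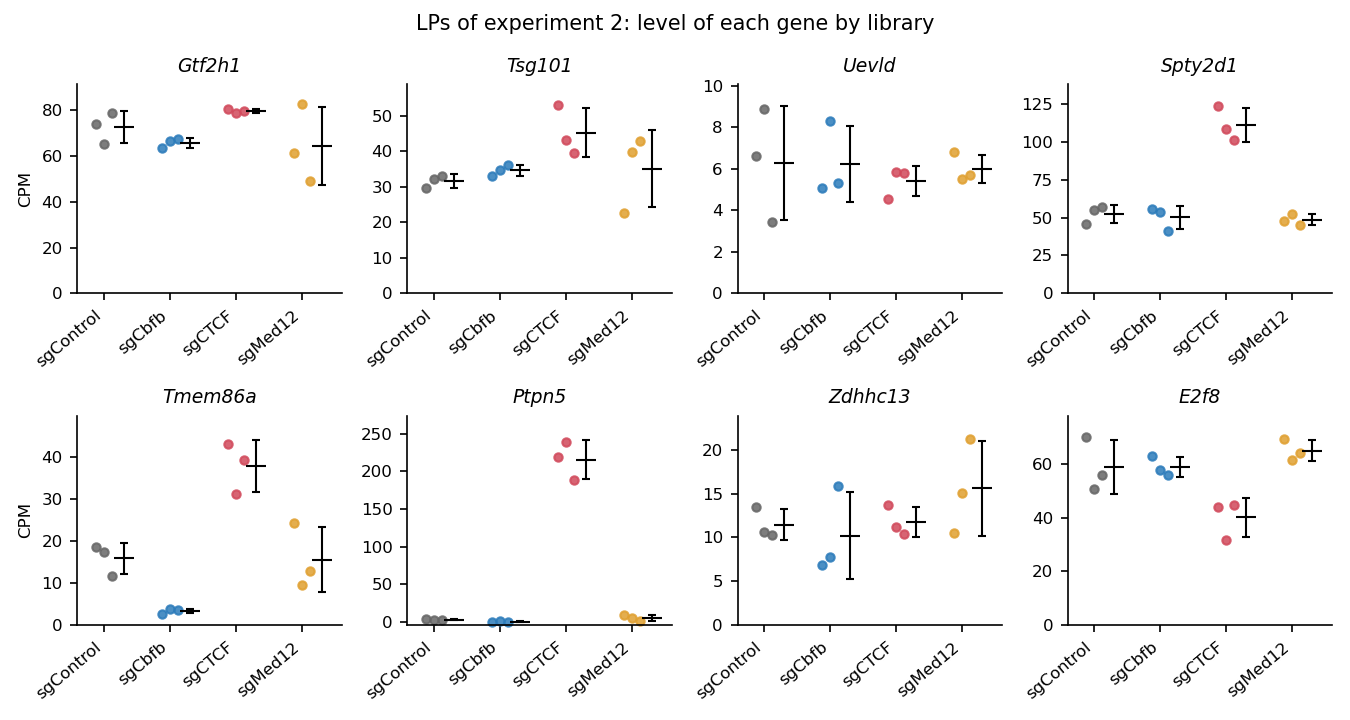
Level in CPM (vertical axis, linear, a scale for each gene) of the 8 genes in every library of experiment 2; coloured points are the 3 libraries of a group and black bars the mean and SD. Ptpn5, Tmem86a and Spty2d1 are higher in all 3 sgCTCF libraries than in any other library, and Ptpn5 and Tmem86a are lowest with sgCbfb.

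Of the other members, the 2 nearest to Ptpn5 rose as well, though far less than Ptpn5. In all, 2 of the 7 rose with sgCTCF (Tmem86a and Spty2d1), 1 fell (E2f8) and 4 did not pass the test. Across all genes tested in this comparison, 10.3% passed, 6.13% upwards and 4.20% downwards. The median difference was 0.14 over the 7 and -0.02 over all genes. These p-values come from one limma fit of the experiment with Benjamini-Hochberg adjustment over all genes, and the members were proposed with results of these libraries known.

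Tmem86a, which encodes a lysoplasmalogenase of ether lipid metabolism, had 18.5, 17.4 and 11.7 CPM with sgControl and 43.2, 31.2 and 39.3 CPM with sgCTCF. The lowest sgCTCF library stood well above the highest sgControl library. The group means were 15.9 ± 3.65 and 37.9 ± 6.13 CPM, a ratio of 2.39 (log2 fold change 1.22, SE 0.28, limma adjusted p = 0.0043).

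Spty2d1, the mouse counterpart of the yeast histone chaperone SPT2, had 45.9, 54.9 and 57.0 CPM with sgControl and 123.4, 108.3 and 101.2 CPM with sgCTCF. Again no library of one group reached the range of the other. The means were 52.6 ± 5.90 and 111.0 ± 11.3 CPM, a ratio of 2.11 (log2 fold change 1.06, SE 0.14, limma adjusted p = 1.2e-05). A long non-coding gene on the opposite strand, Gm32031, shares 329 exon bases with Spty2d1, and the strand setting of the counting is not given in the sources used here. Gm32031 itself was at 4.31 ± 0.96 CPM with sgControl and 4.30 ± 1.42 CPM with sgCTCF. Tmem86a and Spty2d1 both also passed the thresholds by which the study defined differential expression (adjusted p under 0.05, absolute log2 ratio over 1 and a mean over 10 CPM), as did 1.81% of all genes in the upward direction. Spty2d1 fell just short of the fold threshold without sgControl replicate 1 (ratio 1.98) and without sgCTCF replicate 1 (ratio 1.99).

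Between and beyond these, the remaining members on that side of Ptpn5 did not pass. Uevld, which encodes a protein with a ubiquitin E2 variant domain and lies between Spty2d1 and Tsg101, was at 6.59, 8.86 and 3.41 CPM with sgControl and 4.56, 5.85 and 5.78 CPM with sgCTCF. The sgCTCF values lay inside the sgControl range, and the interval of the difference ran from -0.77 to 0.53 on the log2 scale (adjusted p = 0.88, limma).

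Tsg101, a subunit of ESCRT-I, which sorts ubiquitinated membrane proteins into multivesicular bodies, had 29.5, 32.2 and 33.1 CPM with sgControl and 52.9, 43.2 and 39.5 CPM with sgCTCF. The groups did not overlap, with means of 31.6 ± 1.86 and 45.2 ± 6.90 CPM, but the difference of 0.49 (SE 0.19, 95% interval 0.11 to 0.88) missed the threshold in limma (adjusted p = 0.10). It passed when only the sgCTCF and sgControl groups entered the fit (adjusted p = 0.027) and when sgMed12 replicate 1 was left out (adjusted p = 0.025), and over the 20 alternatives its adjusted p ran from 0.025 to 0.37.

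Gtf2h1, a core subunit of the transcription and DNA repair factor TFIIH, was at 72.8 ± 6.91 CPM with sgControl and 79.9 ± 0.85 CPM with sgCTCF. Its lowest sgCTCF library (79.1 CPM) was just above its highest sgControl library (78.9 CPM). The difference was 0.14 (95% interval -0.16 to 0.44, limma adjusted p = 0.65). In all, 5 of the 7 neighbours had groups that did not overlap, as did 31.1% of all genes tested.

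The distant members on the other side of Ptpn5 showed no rise that passed the test. Zdhhc13, a palmitoyltransferase of the DHHC family, was at 11.4 ± 1.76 CPM with sgControl and 11.7 ± 1.72 CPM with sgCTCF (interval of the log2 difference -0.56 to 0.63, limma adjusted p = 0.96). E2f8, an atypical E2F factor that represses cell cycle genes, had 70.2, 50.5 and 56.0 CPM with sgControl and 43.7, 31.7 and 44.6 CPM with sgCTCF. All sgCTCF values were below all sgControl values, and E2f8 fell by 0.55 (SE 0.15, limma adjusted p = 0.018). That call was lost without sgControl replicate 1 (adjusted p = 0.14) and without sgCTCF replicate 2 (adjusted p = 0.16). E2f8 shares 610 exon bases with Gm2788 on the opposite strand, which was at 1.83 ± 0.56 CPM with sgControl and 1.80 ± 0.17 CPM with sgCTCF.

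Tmem86a, Spty2d1 and E2f8 also passed when sgCTCF was set against the other 2 targeted groups. These comparisons use the same 3 sgCTCF libraries, so they are not separate evidence of what sgCTCF did. Against sgCbfb, 3 of the 7 neighbours passed, as did 22.3% of all genes: Tmem86a was 11.4 times higher (log2 fold change 3.17, SE 0.28, limma adjusted p = 2.4e-09), Spty2d1 was 2.22 times higher (1.14, SE 0.14, adjusted p = 7.9e-07), and E2f8 fell by 0.56 (adjusted p = 0.0073, but 0.079 without sgCTCF replicate 2). Against sgMed12, 3 of the 7 passed beside 20% of all genes: Tmem86a at a ratio of 2.44 (1.32, SE 0.28, limma adjusted p = 0.0014), Spty2d1 at 2.29 (1.18, SE 0.14, adjusted p = 1.9e-06), and E2f8, which fell by 0.70 (SE 0.15, adjusted p = 0.0018). Without sgMed12 replicate 2, Gtf2h1 (0.53, adjusted p = 0.0019) and Tsg101 (0.51, adjusted p = 0.042) also passed against sgMed12.

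**Figure D2:**
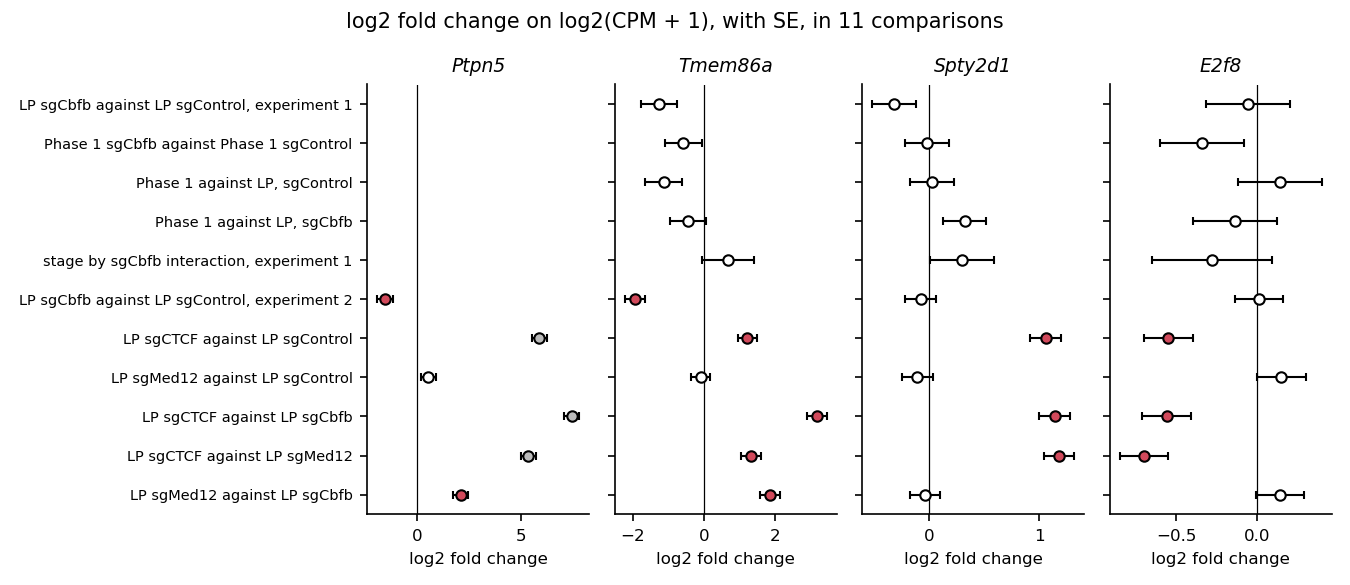
log2 fold change on log2(CPM + 1) (horizontal axis, a scale for each gene), with SE as bars, of Ptpn5, Tmem86a, Spty2d1 and E2f8 in the 11 comparisons (6 for Ptpn5, which was at the floor in experiment 1); red points passed an adjusted p of 0.05, white points did not, and grey points are the untested sgCTCF contrasts of Ptpn5. Tmem86a is lower with sgCbfb in experiment 2 and higher with sgCTCF, whereas Spty2d1 passed in the 3 sgCTCF comparisons and in none of the other 8.

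Read by position, the 2 tested genes that rose with sgCTCF, apart from Ptpn5, were the 2 members nearest to Ptpn5. Gm45474, LOC102637012 and Gm44969, which lie within 30 kb of Ptpn5, and Mrgpra6 on its other side were too low to be tested, with 0 to 2 reads over the sgCTCF group. The annotation holds 105 genes from 500 kb before Gtf2h1 to 500 kb after E2f8, of which 39 are protein coding and 19 were tested in experiment 2. Of the 11 tested genes that are no members, 0 rose with sgCTCF and 2 fell in limma, beside the 6.13% and 4.20% of all genes. The nearest of them to Ptpn5 was Gm32031, with a log2 fold change of -0.03 (SE 0.33). Next came Ldha, the lactate dehydrogenase of glycolysis, 222.2 kb from Ptpn5 between Gtf2h1 and Tsg101. Ldha went from 778.1 ± 41.0 to 415.4 ± 40.6 CPM with sgCTCF and fell by 0.91 (SE 0.11, limma adjusted p = 4.8e-06). Saal1, 367.1 kb away, went from 29.2 ± 4.51 to 14.0 ± 1.69 CPM and fell by 1.01 (SE 0.19, adjusted p = 8.0e-04).

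The others among the 10 nearest did not pass in limma and differed by 0.20 for Hps5 (SE 0.19), 0.27 for Tph1 (SE 0.31) and -0.33 for Sergef (SE 0.24), with the low non-coding genes Gm45629, Gm45311, Gm45041 and Gm2788 between -0.68 and 0.01. Within the stretch from Ptpn5 to Saal1, the tested genes thus differed in direction. In order of distance from Ptpn5, Tmem86a rose, Gm32031 did not pass, Spty2d1 rose, and Uevld and Tsg101 did not pass. Beyond them, Ldha fell, Gtf2h1 and Hps5 did not pass, and Saal1 fell. Ldha also fell with sgCbfb (-0.37, SE 0.11, adjusted p = 0.026) and with sgMed12 (-0.49, SE 0.11, adjusted p = 0.012).

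**Figure D3:**
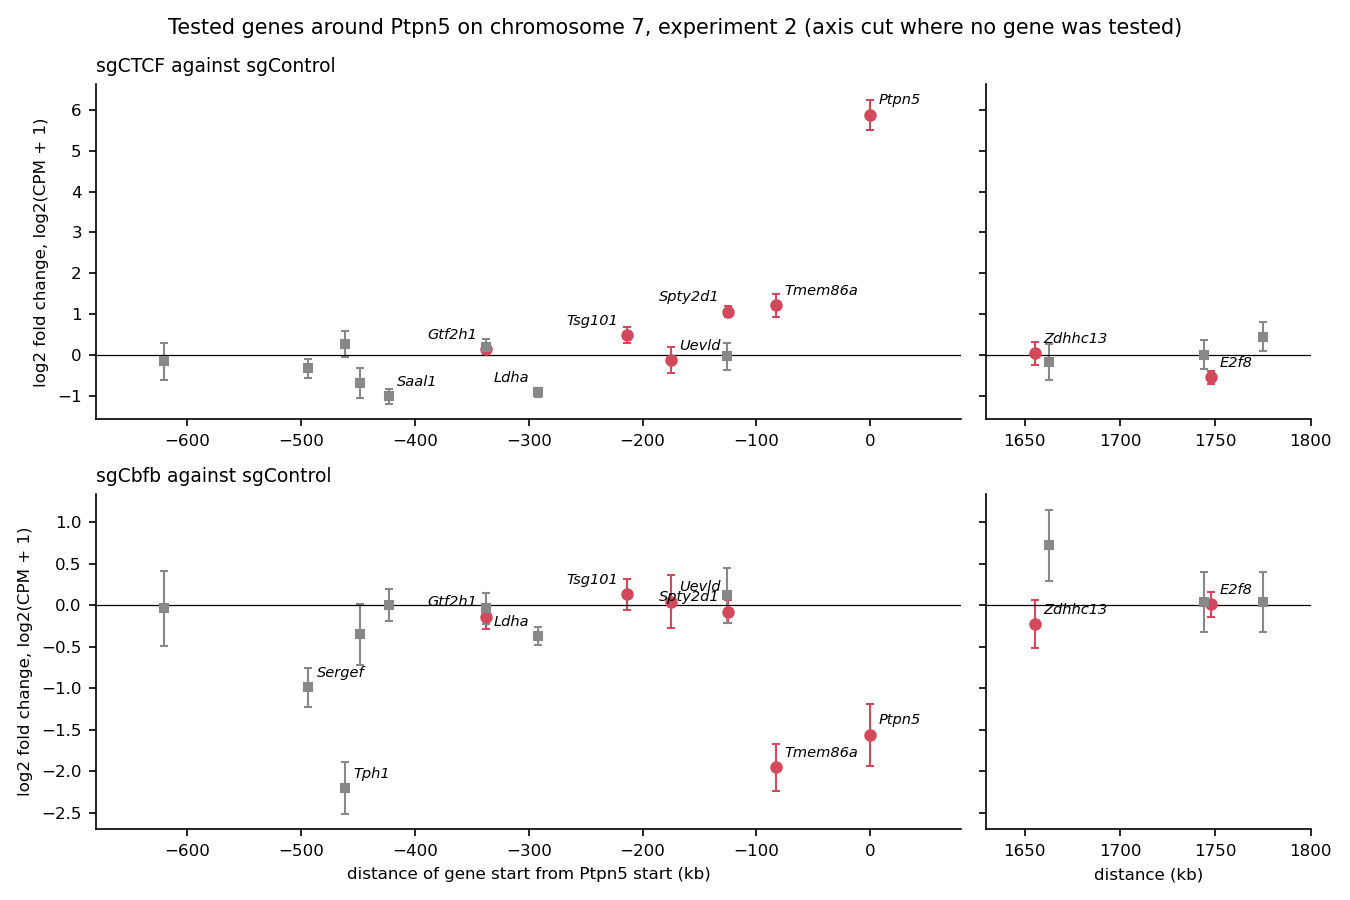
log2 fold change on log2(CPM + 1), with SE as bars, of the 19 tested genes around Ptpn5 in experiment 2 against the distance in kb of each gene's start from that of Ptpn5, negative towards lower chromosome positions; the horizontal axis is cut where no gene was tested, red circles are members, grey squares other genes, and names are given for members and for genes that passed the test. With sgCTCF, Ptpn5 stands at 5.88 and Tmem86a and Spty2d1 at 1.22 and 1.06, and with sgCbfb Ptpn5 and Tmem86a stand at -1.56 and -1.95.

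With sgCbfb, Ptpn5 and Tmem86a, the tested gene nearest to it, were both lower. In LPs of experiment 2, 2 of the 8 members passed the test with sgCbfb, both lower, beside 12.5% of all genes (5.57% downwards). The median difference was -0.11 over the 8 and -0.01 over all genes. Ptpn5 is described above. Tmem86a was at 2.68, 3.75 and 3.53 CPM with sgCbfb against 18.5, 17.4 and 11.7 CPM with sgControl, and no sgCbfb library came near the sgControl range. The means were 3.32 ± 0.56 and 15.9 ± 3.65 CPM, a ratio of 0.209, and Tmem86a fell by 1.95 on the log2 scale (SE 0.28, limma adjusted p = 9.9e-06). It passed under all 20 alternatives, and it was the 1 member that met the study's 3 thresholds, as did 1.65% of all genes downwards.

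Spty2d1, which rose with sgCTCF, was at 52.6 ± 5.90 CPM with sgControl and 50.0 ± 7.83 CPM with sgCbfb (interval of the log2 difference -0.37 to 0.21, limma adjusted p = 0.82). The other 5 members differed by -0.23 (Zdhhc13) to 0.13 (Tsg101), with adjusted p from 0.64 to 0.98 in limma. Monocyte and macrophage markers moved with sgCbfb too, with a summed level of 500.6 to 568.2 CPM against 58.4 to 75.0 CPM with sgControl. Of the 6 genes examined, 5 had over 3 reads in a library with sgCbfb and 3 with sgControl. The neural list was also higher, at 107.1 to 139.7 CPM against 42.6 to 55.1 CPM, and the B lineage list was lower, at 162.8 to 216.9 CPM against 242.8 to 314.6 CPM, with Cd79a at 0 in both groups. In both groups, 3 of 6 neural and 2 of 3 B lineage genes had over 3 reads in a library, so these sums rest on few genes. The neural list includes Tubb3, RUNX-repressed in LPs according to the paper. The part of these in the lower levels of Ptpn5 and Tmem86a was not tested.

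Experiment 1 held the same sgCbfb comparison at lower depth. There 0 of the 7 members other than Ptpn5 passed in LPs by limma, and 0 by edgeR or DESeq2, with 1 at an unadjusted p under 0.05 in limma (Tmem86a), beside 2.85% of all genes past the test. Tmem86a was at 13.0, 16.1 and 18.6 CPM with sgControl and 7.05, 3.44 and 8.56 CPM with sgCbfb, from 6 to 12 reads. The groups did not overlap, with means of 15.9 ± 2.83 and 6.35 ± 2.63 CPM and a ratio of 0.400. Its log2 fold change was -1.26 (SE 0.51, 95% interval -2.33 to -0.19, limma adjusted p = 0.29). The marker lists separated these groups as well: the sgCbfb LPs had 318.1 to 328.3 CPM of the monocyte and macrophage list against 62.3 to 73.2 CPM with sgControl, 127.3 to 170.7 against 55.9 to 76.8 CPM of the neural list, and 165.8 to 214.4 against 296.7 to 409.6 CPM of the B lineage list. In both groups, 2 of 6 monocyte and macrophage, 3 of 6 neural and 2 of 3 B lineage genes had over 3 reads in a library. Each sum therefore rests on few genes. The neural list includes Tubb3, which the paper names as RUNX-repressed in LPs. The part of these lists in the lower Tmem86a was not tested. Each experiment had its own sgControl libraries.

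With sgMed12, no member passed against sgControl by limma, by edgeR or by DESeq2, and 0 of the 8 had an unadjusted p under 0.05 in limma, beside 7.22% of all genes past the test (2.53% upwards, 4.70% downwards). The split of all genes depended on the scaling here, since edgeR called 403 upwards and 384 downwards. For 4 members, the fourth being Zdhhc13, the sgMed12 libraries had a larger SD than those of any other group of experiment 2: Gtf2h1 ran from 49.1 to 82.8 CPM, Tsg101 from 22.6 to 42.9 CPM and Tmem86a from 9.59 to 24.3 CPM. Without sgMed12 replicate 2, Gtf2h1 passed against sgControl (log2 fold change -0.40, limma adjusted p = 0.026). Between sgMed12 and sgCbfb, 2 of the 8 passed, both higher with sgMed12, beside 16.8% of all genes (7.03% upwards): Ptpn5, described above, and Tmem86a, higher with sgMed12 by 1.85 (SE 0.28, limma adjusted p = 2.1e-05) at a ratio of 4.68.

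Among the 7 members above the floor, Notch stimulation gave none past the test. Between Phase 1 and LP cells with sgControl, 0 of the 7 passed by limma, edgeR or DESeq2, and 1 had an unadjusted p under 0.05, beside 6.48% of all genes past the test. That 1 was Tmem86a, at 4.94, 4.52 and 12.5 CPM in Phase 1 cells against 13.0, 16.1 and 18.6 CPM in LPs. Even the highest Phase 1 library stayed below the lowest LP library, and the difference was -1.14 (SE 0.51, 95% interval -2.21 to -0.07, limma adjusted p = 0.22). The ratio of the means, 0.460, was 0.297 without Phase 1 sgControl replicate 3. The summed marker lists also differed without overlap between Phase 1 cells and LPs, at 147.4 to 206.1 against 296.7 to 409.6 CPM for the B lineage, 19.8 to 25.8 against 62.3 to 73.2 CPM for monocytes and macrophages, and 95.5 to 118.8 against 55.9 to 76.8 CPM for neural genes, and their part in the difference was not tested. In Phase 1 cells, 1 of 3, 3 of 6 and 2 of 6 of these genes, respectively, had over 3 reads in a library. In LPs these were 2 of 3, 2 of 6 and 3 of 6, so each sum rests on few genes.

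Between Phase 1 and LP cells with sgCbfb, 0 of the 7 passed by the same 3 tools, with 1 at an unadjusted p under 0.05 (Tsg101, 0.72, limma adjusted p = 0.33), beside 2.24% of all genes. Between Phase 1 cells with sgCbfb and with sgControl, 0 passed by the 3 tools and 0 had an unadjusted p under 0.05 in limma, beside 5.97% of all genes. Tmem86a was there at 4.52 ± 2.49 and 7.31 ± 4.47 CPM (log2 fold change -0.58, 95% interval -1.65 to 0.49). The difference between the sgCbfb effects in the 2 stages was tested as an interaction: 0 of the 7 passed by the 3 tools and 1 had an unadjusted p under 0.05 (Tsg101, 0.94, limma adjusted p = 0.46), beside 1.27% of all genes.

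Apart from Ptpn5, the levels in the LP sgControl groups were much alike in the 2 experiments. Across the groups of experiment 1, Gtf2h1 had means of 58.9 to 77.5 CPM, Spty2d1 of 44.8 to 56.7 CPM and E2f8 of 42.0 to 53.1 CPM. Tsg101 had means of 28.2 to 46.8 CPM and Tmem86a of 4.52 to 15.9 CPM. Zdhhc13 had 6.39 to 11.1 CPM and Uevld 3.39 to 6.40 CPM, from as few as 0 reads in a library for Uevld, so that modest differences in these could not be seen at this depth.

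**Figure D4:**
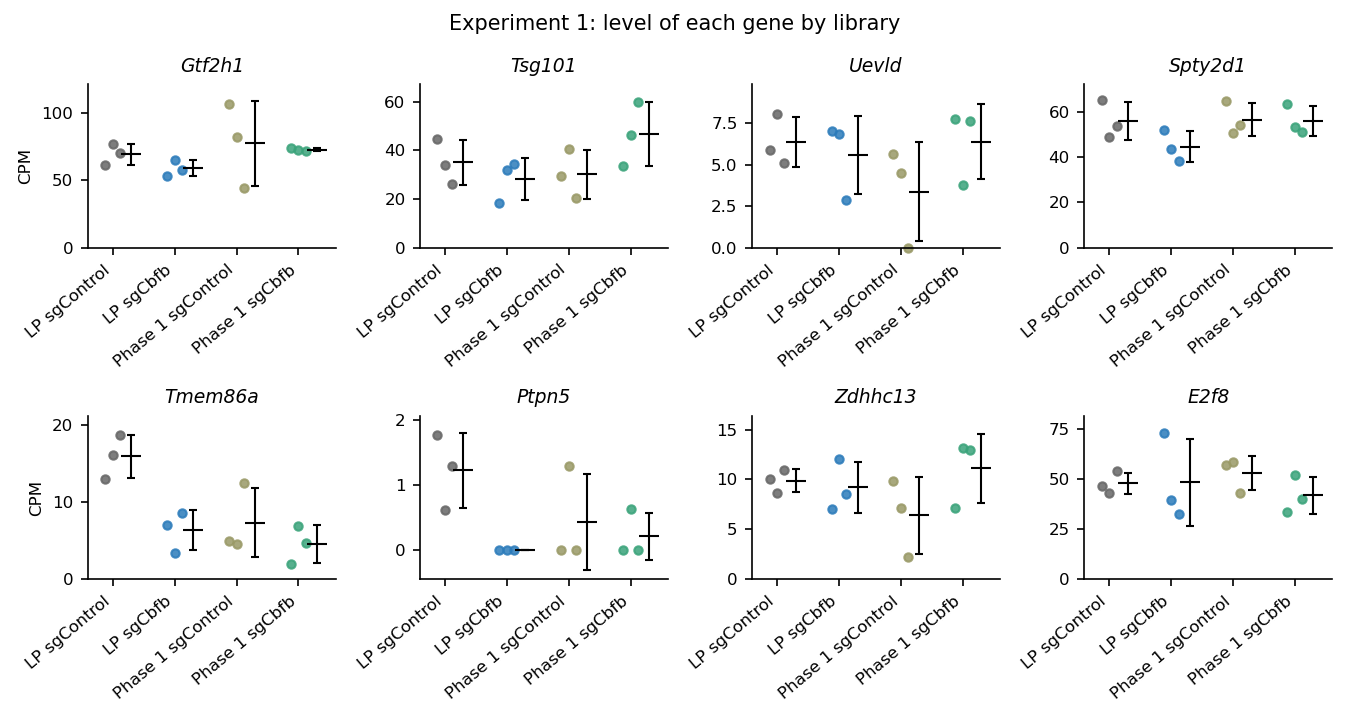
Level in CPM (vertical axis, linear, a scale for each gene) of the 8 genes in every library of experiment 1; coloured points are the 3 libraries of a group and black bars the mean and SD. Ptpn5 stays below 2 CPM throughout, and Tmem86a is highest in the 3 LP sgControl libraries, between 13.0 and 18.6 CPM.

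The proteins that Ptpn5 acts on or resembles were read alongside. STEP and its relatives dock on MAP kinases through a kinase interaction motif and dephosphorylate them, and STEP also acts on Fyn. Of 9 listed genes of this group, 8 were tested in experiment 2, and of the 7 beside Ptpn5, 1 rose with sgCTCF and 0 fell, with a median difference of 0.08. That gene was Fyn, a Src family kinase, from 75.1 ± 9.48 to 107.0 ± 14.3 CPM (0.50, SE 0.12, limma adjusted p = 0.0081). Fyn rose with sgCbfb too, where Ptpn5 was lower, to 139.4 ± 6.93 CPM (0.89, SE 0.12, adjusted p = 7.0e-06).

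The complexes of the neighbours were read in the same way. Among 10 TFIIH genes, 1 rose with sgCTCF, the small subunit gene Gtf2h5, from 158.9 ± 12.9 to 200.5 ± 2.73 CPM (0.34, SE 0.10, limma adjusted p = 0.035), and the list's median was 0.05. Among 8 tested ESCRT-I genes, 1 rose, Vps37b, from 46.8 ± 3.73 to 70.6 ± 2.05 CPM (0.59, SE 0.15, adjusted p = 0.014), and the median was 0.15. Among 8 E2F genes, 2 fell, E2f8 and E2f1, the latter an activator of S phase genes, from 66.8 ± 4.54 to 42.7 ± 6.14 CPM (-0.64, SE 0.15, adjusted p = 0.0077), and the median was -0.07. These counts stand beside 10.3% of all genes past the test.

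The genes whose pattern was most like that of Ptpn5 were other genes with a high level under sgCTCF. Over the 24 libraries, each expressed as log2(CPM + 1) minus the mean of the LP sgControl libraries of its experiment, the highest Pearson r among genes tested in experiment 2 were those of En1 (0.941), Olfr523 (0.937), Crmp1 (0.936), Amph (0.934) and Fscn1 (0.933). En1 was at 33.1 ± 6.09 CPM with sgCTCF and listed at 0 in every other group of experiment 2, and Fscn1 was at 31.0 ± 6.22 CPM against 1.0 ± 0.41 CPM with sgControl. Among the members, Spty2d1 came closest, with an r of 0.865 at rank 30, followed by Tmem86a with 0.789 at rank 94, and E2f8 was the most opposed with -0.466. En1 and Amph, at 0 in the other groups of experiment 2, passed the filter on low values only through the sgCTCF libraries. Olfr523, with means of 0 to 0.70 CPM in those other groups, and Crmp1, with means of 0.09 to 1.42 CPM, also needed them to pass. The points share libraries, and the 3 sgCTCF libraries, which also chose Ptpn5, weigh heavily in each r, so these are descriptions only.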

How the data were processed

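Sorted Cas9-LP cells were profiled by QuantSeq 3' mRNA sequencing in 24 libraries, 3 in each of 8 groups, which the study calls biological replicates. Per the methods and the submitters' processing notes, the authors used fastp for adapter trimming and STAR for mapping to mm10, and scaled each library to a common total. The program that counted reads, its annotation and its strand setting are not given in the sources used here. The deposited values are CPM although they are named TPM: each library has 1 step for genes of any length, and dividing by that step gave whole reads for at least 99.98% of values (tolerance 0.05 read). 1 column holding the authors' mean of the sgControl libraries was not used, nor was a last line without an identifier. No 2 libraries held identical values. The other data types of the study were not analysed here.

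Groups and replicate numbers were taken from the sample titles. A gene entered the test if 3 or more libraries of the experiment reached 1 CPM. One limma (version 3.58.1, R 4.3.3) model per experiment, over its 4 groups, was fitted to log2(CPM + 1), with variances moderated along a trend and Benjamini-Hochberg adjustment. A gene passed the test at an adjusted p under 0.05. Fold changes on this scale understate changes of low genes, and ratios are of mean CPM. Alternatives were a pseudocount of 0.1 or 5, no filter, scaling by the median of ratios, a fit of just the compared groups, a replicate block, edgeR 4.0.16 and DESeq2 1.42.0 on recovered reads, the study's thresholds, and each library left out. The fits were tested on simulated data. Sampling floors cover counting error only.

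Positions, exon overlaps and names came from GENCODE M21 on GRCm38, which held 55141 of the 55487 listed genes, and promoters from RefSeq. The genes named were the members in every comparison, the 3 targeted genes, up to 10 tested genes nearest to Ptpn5 in the chromosome 7 window, the members of 4 lists (KIM-type phosphatases and substrates, TFIIH, ESCRT-I, E2F family) past the test with sgCTCF, and the 5 genes most like Ptpn5. Window genes that passed with sgCTCF or sgCbfb against sgControl in experiment 2 were named in a figure. Nav2, which passed elsewhere, is given under the other observations. Markers of lymphoid progenitors, the B lineage, OP9 stroma, monocytes and macrophages, and neurons were read by their summed level, and 1 gene of the B lineage list is not reported here. The members and lists were chosen with earlier results of these data known.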

Additional observations from a re-analysis of the deposited data

How the results depend on the processing

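Of 1593 single values recomputed for the members with a test, Ptpn5 of experiment 1 left out, over pseudocounts, filter, scaling, fit, tool and libraries left out, 4 lost their call, 6 gained one and 0 changed direction with a call. The number of members past the test was 1 in place of 2 for sgCbfb against sgControl in experiment 2 with a pseudocount of 5 and with the study's 3 thresholds, and 1 in place of 2 for sgMed12 against sgCbfb with those thresholds. The log2 difference of Ptpn5 with sgCTCF, 5.88, was 6.28 with a pseudocount of 0.1 and 4.83 with 5, and 5.75 to 6.05 with libraries left out. Leaving out each library gave 2 to 4 members for sgCTCF against sgControl, 2 to 3 against sgCbfb, 3 to 5 against sgMed12, 0 to 1 for sgMed12 against sgControl, 2 to 3 for sgMed12 against sgCbfb, 2 in each case for sgCbfb in experiment 2, and 0 in the 5 comparisons of experiment 1. The highest values of both sgMed12 comparisons, 5 and 1, came without sgMed12 replicate 2. Where the cause is not in the construction of an alternative, it was not tested.

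With the replicate number as a block, the counts of members were unchanged, at 3, 3 and 3 for the sgCTCF comparisons, 2 and 2 for those with sgCbfb as a partner of sgControl or sgMed12, and 0 elsewhere. Same-numbered libraries were at most weakly alike. Their deviations correlated by -0.011 to 0.102 in experiment 1 and -0.063 to 0.111 in experiment 2, with 1 and 2 of 18 pairs over 0.1. Differently numbered libraries correlated by -0.095 to 0.05 and by -0.108 to 0.086, with 0 of 36 pairs over 0.1 in each experiment. The counts over all genes moved by over 1.5 times in few fits other than those with a library left out: from 952 to 24 for sgMed12 against sgControl with those groups alone and to 325 without the filter, from 2215 to 1356 for sgMed12 against sgCbfb, from 858 to 401 for Phase 1 against LP with sgControl and from 790 to 480 for sgCbfb in Phase 1, each with only the groups compared. Of the 952, 35.0% were higher, against 45.9% with median-of-ratios scaling, 51.2% in edgeR and 48.9% in DESeq2. That count ran from 187 without sgMed12 replicate 3 to 2829 without sgMed12 replicate 2, and leaving out any other sgMed12 or sgControl library also moved it by over 1.5 times. The 1361 genes of sgCTCF against sgControl became 782 without sgCTCF replicate 2, with falls by over 1.5 times also without sgCTCF replicate 1 and sgControl replicates 1 and 3. In experiment 1 the counts of the 5 comparisons ran over 243 to 657, 523 to 892, 549 to 1007, 181 to 581 and 107 to 240. Depth limits Ptpn5 in experiment 1 and Uevld and Zdhhc13 throughout.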

Other observations

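The long interval between Ptpn5 and Zdhhc13 holds 15 protein-coding Mrgpr genes, receptors best known from sensory neurons, and 0 of them were tested, since none passed the filter on low values. Of these, Mrgpra1 was looked at after its values were seen. It lies at 47334875 to 47354240 on the minus strand of chromosome 7, 201.2 kb from Ptpn5 on the side away from Tmem86a. Its reads in experiment 2 numbered 0 in every sgControl, sgCbfb and sgMed12 library and 3, 9 and 6 in the sgCTCF libraries, or 0.805, 2.51 and 1.39 CPM. The reads of all 15 together were 4, 10 and 7 in the sgCTCF libraries, 0 in each sgControl library, 3, 1 and 1 with sgMed12 and 0, 0 and 2 with sgCbfb. No test was made of these values, which were picked for their pattern.

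Tph1, the first enzyme of serotonin synthesis in peripheral tissues, lies 405.3 kb from Ptpn5 beyond Gtf2h1 and was the window gene with the largest fall with sgCbfb in experiment 2, by 2.20 on the log2(CPM + 1) scale (SE 0.31, limma adjusted p = 9.1e-06). It was also lower in Phase 1 cells than in LPs, by -3.20 with sgControl (SE 0.55, limma adjusted p = 5.4e-04) and by -2.21 with sgCbfb (SE 0.55, adjusted p = 0.034). Sergef, 438.0 kb away, fell with sgCbfb by 0.99 (SE 0.24, adjusted p = 0.0054) in experiment 2. In LPs of experiment 1, neither gene passed with sgCbfb. Tph1 differed there by -0.16 (SE 0.55, interval -1.31 to 0.98, limma adjusted p = 0.96), an interval that did not reach the fall of 2.20. Sergef differed by -0.29 (SE 0.47, interval -1.27 to 0.69, adjusted p = 0.9), an interval that included the fall of 0.99. Nav2, 1775 kb from Ptpn5 and past E2f8, rose with sgCbfb in LPs of experiment 1 by 2.02 (SE 0.54, limma adjusted p = 0.042). In experiment 2, Nav2 differed by 0.04 with sgCbfb (SE 0.36, limma adjusted p = 0.97). These genes too were picked after their values were seen.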
